A study of Mus musculus with 8 samples.

Results

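The plasminogen activation system was described from 9 genes measured in whole mouse mammary tumours with and without sequestration of miR-21. The 9 genes were listed by name and function, with earlier results of these data known, out of 27179 genes in the count table. They were the plasminogen activators Plau and Plat, the urokinase receptor Plaur, the serpin inhibitors Serpine2, Serpinf2, Serpinb2 and Serpinb6a, and F3 and Tfpi, which start and restrain the tissue factor pathway of coagulation. 8 of the 9 passed the filter on low counts and were tested. Serpinf2 did not.

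Tumours grew from 100000 cells of 4T1.13, a metastatic mouse mammary carcinoma line, placed in a mammary fat pad of female BALB/c mice aged 7 to 8 weeks. The 4 tumours of 4T1.13-VC (vector control, VC) came from cells with a lentiviral vector carrying a scrambled sequence, and the 4 of 4T1.13-miR-21-KD (miR-21-KD) from cells whose vector expresses, from an H1 promoter, an RNA that binds and sequesters mature miR-21. The hosts were immunocompetent and miR-21 was sequestered only in the injected cells. Each line was a pool of 6 clones, and both lines carried the reporter and selection markers of the vector. The labels give day 14 after injection for the recovery of the tumours and the methods of the study give day 12. By the account of the study, regression of the miR-21-KD tumours was starting at recovery. Differences that go with regression and those that go with sequestration of miR-21 cannot be told apart in this comparison. RNA of the whole tumour was sequenced, so that tumour cells and host cells were measured together. Fewer cells of a type and less RNA per cell cannot be told apart in these samples.

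Between 12134849 and 13592695 reads were counted on genes in a tumour. A count of 0 allows up to 3 counts, or 0.221 to 0.244 CPM (counts scaled to the library size by TMM), and this covers counting error only. Mir21a had 0 counts in all 8 tumours, so the table holds no check of the knockdown. Values are CPM, given for replicates 1 to 4 in order. Fold changes, standard errors (SE) and p-values adjusted by Benjamini-Hochberg over all 14382 tested genes come from the quasi-likelihood test of edgeR. The study describes the 4 tumours of a group as biological replicates.

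Plasminogen is a circulating zymogen that is cut to plasmin, a broad serine protease that dissolves fibrin and degrades matrix. Urokinase, from Plau, does so mainly at the cell surface on its receptor, and tissue-type activator, from Plat, mainly on fibrin. Serpins trap their protease in an irreversible complex, so the balance of activator and inhibitor sets how much plasmin is made. The system is studied in breast cancer because tumour and stromal cells use it in invasion. Tissue factor, from F3, is the cell-surface cofactor that starts coagulation and so deposits the fibrin on which plasmin acts.

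miR-21 acts through its seed (bases 2 to 8, in capitals), which pairs with short matches in 3′ UTRs. The mature strand mmu-miR-21a-5p, at chr11:86584120-86584141 on the minus strand of GRCm38.p6, is printed from RefSeq. It is shown beside the stretch around the seed match of Pdcd4, a known target of miR-21, from bases 289 to 296 of an annotated 3′ UTR of 717 bases (GENCODE M21), with the match in capitals.
mmu-miR-21a-5p: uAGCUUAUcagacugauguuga
Pdcd4 3′ UTR: gggtgttctgATAAGCTActttctaagt

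None of the 9 genes had such a match. The longest annotated 3′ UTR of each, from 123 bases in Serpinb6a to 3063 bases in Tfpi, was searched for ATAAGCTA, ATAAGCT and TAAGCTA on the sense strand. Of 21020 genes with an annotated 3′ UTR, 2339 (11.1%) held at least 1 of these words. The absence says only that these letters are not in these windows.

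The promoters of the genes (250 bases before to 50 after the annotated start, RefSeq, GRCm38.p6) were searched on both strands for a few short motifs. The table of promoters held 7 of the 9 genes in 10 entries, and Plau and Plat were not in it. The letters TGANTCA, with N for any base, were taken as a loose form of the AP-1 binding motif and read the same on both strands. They stood in 4 of the 10 entries, of 3 genes, against 7.8% of 32851 promoters. The usual form, with C or G at N, was held by Plaur (TGACTCA) and F3 (TGAGTCA). The match of Serpinb2 and another of F3, TGAATCA, have only the loose form. The stretches that hold the loose form are printed with the match in capitals, all on the plus strand.
Plaur, chr7:24462404-24462430: cccctggagcTGACTCActctttagca
F3, chr3:121723381-121723407: gcggcgctgtTGAATCAcggttgagtc
F3, chr3:121723392-121723418: gaatcacggtTGAGTCAcccctttcgg
Serpinb2, chr1:107511319-107511345: agtaaaatgtTGAATCAtacaaagaat

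The motif began 69 bases before the start used by the promoter entry of Plaur and 146 and 135 bases before that of F3, where both matches lie in overlapping stretches. The 2 promoter entries of Serpinb2 hold the same match, 94 and 181 bases before their starts. For Plaur and Serpinb2 these starts, and the matches, lie inside the gene span given below, which begins at an annotated start further upstream. Serpine2, Serpinb6a, Tfpi and Serpinf2 had no match. A GC box (GGGCGG or its reverse complement CCGCCC, some of them overlapping) was found in 6 of the 10 entries (F3, Plaur, Serpinb6a, Serpine2 and Tfpi) against 35.7% of promoters, and TATAAA or its reverse complement TTTATA in 4 (F3, Serpinb2 and Tfpi) against 13.6%. These matches are descriptions of letters, and binding was not measured.

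Of the 8 genes tested, 4 were higher in miR-21-KD tumours (Plau, Plaur, F3 and Tfpi), 1 was lower (Serpine2), and 3 did not pass the threshold (Plat, Serpinb2 and Serpinb6a). Over all tested genes 39.1% passed, 19.6% higher and 19.5% lower, so a change in a single gene was common in this comparison. The groups did not overlap for the same 5 genes, against 35.1% of all genes tested. The median log2 fold change of all tested genes was -0.014 and its median size 0.37, with a size above 1.34 in 10% of genes.

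**Figure D1:**
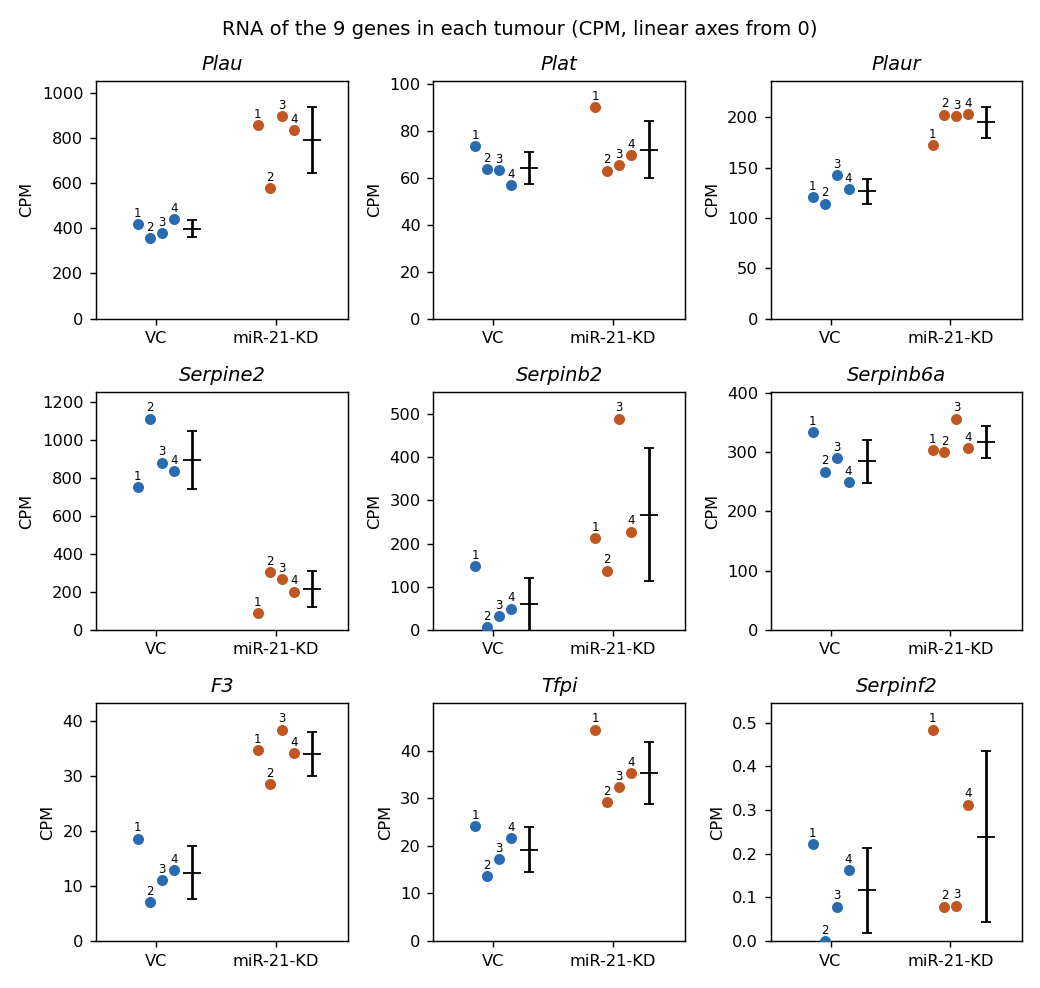
RNA level (CPM, linear axis from 0) of each of the 9 genes in 4 VC (blue) and 4 miR-21-KD tumours (orange), with the replicate number above each point and the mean ± SD in black. The lower end of the VC bar of Serpinb2 lies below 0 and is cut off by the axis. All miR-21-KD tumours lie above all VC tumours for Plau, Plaur, F3 and Tfpi and below them for Serpine2, and Serpinf2 stays near the limit of detection.

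Plau (Entrez 18792, chr14:20836662-20843388, plus strand) encodes urokinase. It had 417.6, 355.2, 378.4 and 440.3 CPM in the VC tumours and 855.7, 576.4, 894.8 and 833.3 CPM in the miR-21-KD tumours. Every miR-21-KD tumour lay above every VC tumour, and replicate 2 was the lowest of both groups. The mean rose from 398 ± 38.3 CPM to 790 ± 145 CPM (SD, n = 4 each), a 1.99-fold change (log2 0.99, SE 0.15, adjusted p = 0.00571 by edgeR). Of all tested genes, 18.0% had a change of larger size.

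Plat (Entrez 18791, chr8:22757722-22782848, plus strand), the gene of tissue-type plasminogen activator, had 73.3, 63.8, 63.2 and 56.8 CPM in VC tumours and 89.9, 63.0, 65.3 and 69.5 CPM in those of miR-21-KD. The groups overlapped, and only replicate 1 of the miR-21-KD group lay above all VC tumours. The log2 fold change was 0.16 (95% interval -0.13 to 0.46, adjusted p = 0.342 by edgeR), so a rise of the size seen for Plau lay outside the interval. The ratio of Plau to Plat counts within a tumour is free of library scaling. It was between 5.57 and 7.75 in VC and between 9.15 and 13.7 in miR-21-KD tumours, without overlap.

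The receptor gene Plaur (Entrez 18793, chr7:24460937-24475970, plus strand) had 120.5, 114.2, 142.4 and 128.3 CPM in VC tumours and 172.4, 202.5, 200.9 and 203.4 CPM in those of miR-21-KD. The groups were apart, and 3 of the 4 miR-21-KD tumours lay close together above the remaining 1. Its mean rose from 126 ± 12.1 CPM to 195 ± 14.9 CPM (SD, n = 4 each), a 1.54-fold change (log2 0.62, SE 0.10, adjusted p = 0.00571 by edgeR). The ratio of Plau to Plaur counts was 3.47, 3.11, 2.66 and 3.43 in VC and 4.96, 2.85, 4.45 and 4.10 in miR-21-KD tumours, and the groups overlapped through replicate 2 of miR-21-KD.

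Serpine2 encodes protease nexin-1, a serpin of the cell surface and matrix that inhibits urokinase, tissue-type activator, plasmin and thrombin. The gene (Entrez 20720, chr1:79794317-79858665, minus strand) had 750.0, 1112, 879.8 and 834.0 CPM in VC tumours. The miR-21-KD tumours had 86.3, 303.1, 268.8 and 200.5 CPM. The highest miR-21-KD value lay far below the lowest VC value. The mean was 4.16-fold lower in miR-21-KD, 894 ± 155 against 215 ± 95.6 CPM (SD, n = 4 each; log2 fold change -2.06, SE 0.35, 95% interval -2.85 to -1.26, adjusted p = 0.00671 by edgeR). Only 0.674% of tested genes had a fold change further down.

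The fall of Serpine2 and the rise of Plau turned the order of their read counts, which depend on the length of a gene as well as on its level. The ratio of Plau to Serpine2 counts was 0.557, 0.319, 0.430 and 0.528 in VC tumours, below 1 in every one, and 9.92, 1.90, 3.33 and 4.16 in miR-21-KD tumours, above 1 in every one. The group means differed by 3.16 on the log2 scale, and by 2.73 to 3.52 when any 1 tumour was left out, lowest without replicate 1 of miR-21-KD. Replicate 1 of miR-21-KD had the highest ratio and the lowest Serpine2 count. The ratio of Plat to Serpine2 counts likewise went from 0.0573 to 0.0977 in VC up to 0.208 to 1.04 in miR-21-KD tumours, a difference of 2.34 on the log2 scale, and here Plat itself did not pass the test. No test was made of the ratios.

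**Figure D2:**
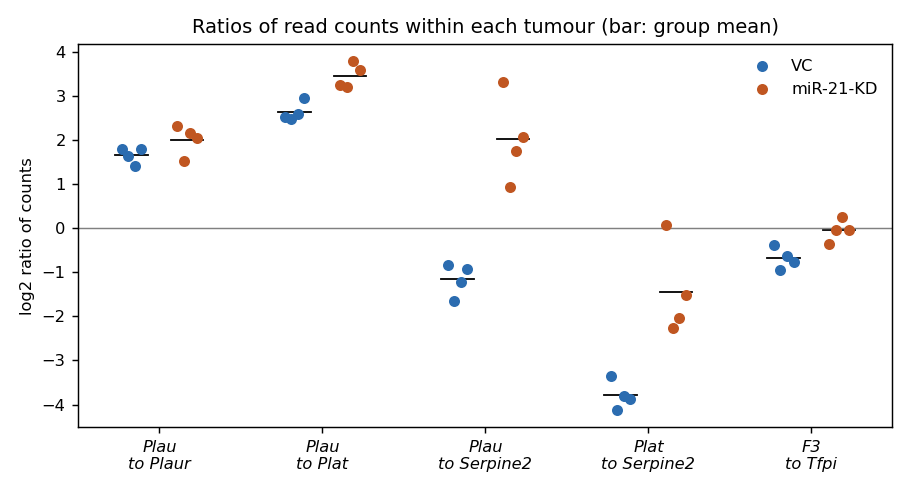
Log2 ratio of the read counts of a pair of genes within each tumour, for 4 VC (blue) and 4 miR-21-KD tumours (orange), with a bar at each group mean. The ratios of Plau and of Plat to Serpine2 are set furthest apart, with group means that differ by 3.16 and 2.34, and only the ratio of Plau to Plaur overlaps between the groups.

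Serpinb2 encodes plasminogen activator inhibitor 2, which is made by monocytes and epithelial cells and inhibits urokinase. The gene (Entrez 18788, chr1:107500892-107525600, plus strand) varied most of the 8 tested genes of the system between tumours of a group, relative to its mean. It had 148.1, 5.50, 32.6 and 48.9 CPM in VC tumours and 213.4, 137.5, 490.0 and 227.8 CPM in those of miR-21-KD. The groups overlapped through a single pair of tumours, since replicate 1 of VC lay above replicate 2 of miR-21-KD. The means were 58.8 ± 62.2 and 267 ± 154 CPM (SD, n = 4 each). The log2 fold change was 2.18 (SE 0.81, 95% interval 0.33 to 4.03), and the adjusted p of 0.0608 by edgeR missed the threshold. With the replicate number as a block, under which tumours of the same number are compared, it was 2.77 with an adjusted p of 0.0257 by edgeR. The adjusted p was 0.0285 with DESeq2, 0.0306 with limma-voom, 0.0045 with limma-voom and quality weights, and 0.0177 by edgeR without replicate 1 of VC (log2 fold change 3.21), within a range of 0.0045 to 0.149 over all alternatives.

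Serpinb6a (Entrez 20719, chr13:33917918-34002794, minus strand), an intracellular serpin of clade B, had 333.7, 267.1, 289.5 and 249.1 CPM in VC tumours and 304.1, 300.6, 356.8 and 307.3 CPM in those of miR-21-KD. The groups overlapped, and the log2 fold change was 0.16 (95% interval -0.10 to 0.41, adjusted p = 0.295 by edgeR). Serpinb6a has near copies whose reads may be shared with it. Of these Serpinb6b had a mean of 34.8 CPM in VC and of 48.2 CPM in miR-21-KD tumours (log2 fold change 0.47, SE 0.24, adjusted p = 0.145 by edgeR), whereas Serpinb6d and Serpinb6e had 0 counts.

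Serpinf2 (Entrez 18816, chr11:75431736-75439501, minus strand) encodes alpha-2-antiplasmin, the main plasmin inhibitor of blood, which is made by the liver. It had 3, 0, 1 and 2 counts in VC and 6, 1, 1 and 4 counts in miR-21-KD tumours. All VC tumours and 2 of the miR-21-KD tumours lay at or under the limit that a count of 0 allows, so a difference was not detectable at this depth.

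F3 and Tfpi, a cofactor and the inhibitor that shuts it off, were both higher. F3 (Entrez 14066, chr3:121723537-121735052, plus strand) had 18.6, 7.09, 11.1 and 12.8 CPM in VC tumours and 34.6, 28.5, 38.3 and 34.1 CPM in those of miR-21-KD. The groups were apart, with the lowest value of each in replicate 2. The mean rose from 12.4 ± 4.76 CPM to 33.9 ± 4.06 CPM (SD, n = 4 each), a 2.73-fold change (log2 1.45, SE 0.26, adjusted p = 0.00713 by edgeR), and 8.37% of tested genes had a change of larger size.

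Tfpi (Entrez 21788, chr2:84432855-84476775, minus strand), whose protein blocks the complex of tissue factor and factor VIIa, had 24.2, 13.6, 17.2 and 21.7 CPM in VC tumours and 44.4, 29.2, 32.3 and 35.2 CPM in those of miR-21-KD. Here too the groups were apart and replicate 2 was lowest in both. The mean rose from 19.2 ± 4.67 CPM to 35.3 ± 6.55 CPM (SD, n = 4 each), a 1.84-fold change (log2 0.88, SE 0.20, adjusted p = 0.0130 by edgeR). The ratio of F3 to Tfpi counts was 0.768, 0.520, 0.644 and 0.590 in VC and 0.780, 0.976, 1.19 and 0.969 in miR-21-KD tumours. These ratios did not overlap, but the highest VC and the lowest miR-21-KD ratio, both in replicate 1, lay close to each other.

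**Figure D3:**
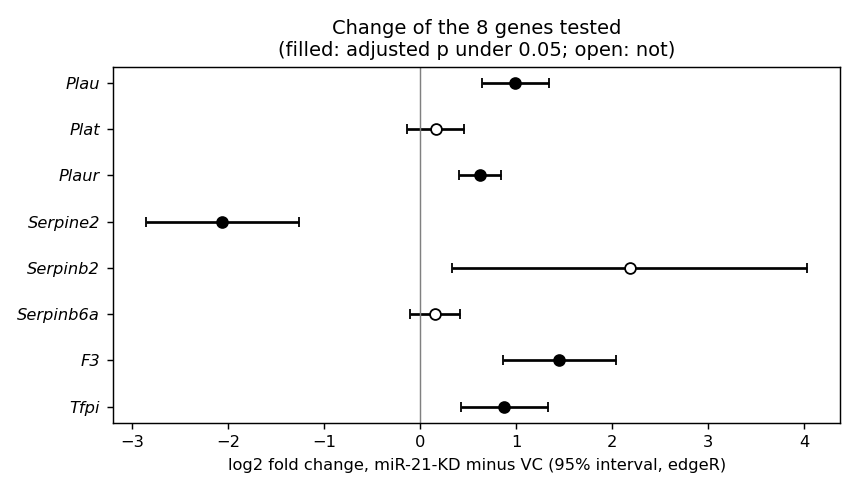
Log2 fold change (miR-21-KD minus VC) of the 8 genes tested, with the 95% interval by edgeR, filled where the adjusted p was under 0.05 and open otherwise. Plau, Plaur, F3 and Tfpi lie to the right of 0 and Serpine2 to the left, and the open point of Serpinb2 has the widest interval, 0.33 to 4.03.

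The summed reads of the 9 genes overlapped between the groups while their makeup differed. The sum was between 1792 and 1939 CPM in VC and between 1641 and 2347 CPM in miR-21-KD tumours. Serpine2 held 39.8% to 57.4% of the sum in VC and 4.79% to 18.5% in miR-21-KD tumours. Plau held 18.3% to 24.6% in VC and 35.1% to 47.5% in miR-21-KD tumours, and Serpinb2 0.284% to 7.85% and 8.38% to 20.9%. Serpinb6a held 13.8% to 17.7% and 15.2% to 18.3%. These are shares of reads and are not corrected for length.

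**Figure D4:**
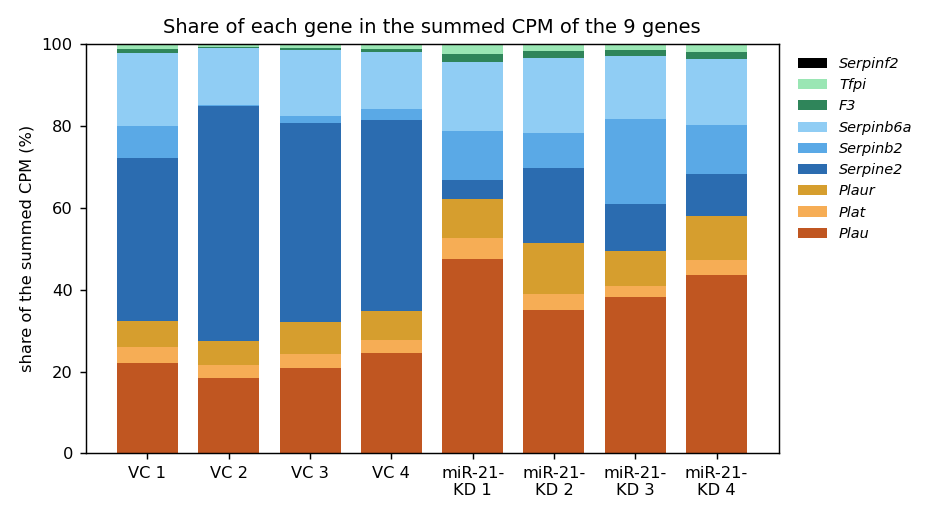
Share (%) of each gene in the summed CPM of the 9 genes in each of the 8 tumours, stacked to 100%. Activators and receptor are in orange shades, Serpine2, Serpinb2 and Serpinb6a in blue shades, coagulation genes in green shades and Serpinf2 in black. The Serpine2 band shrinks from 39.8% or more in every VC tumour to 18.5% or less in every miR-21-KD tumour, and the Plau band grows.

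Levels can be compared between genes only per length, so CPM was divided by the length in kb of the longest protein-coding transcript (GENCODE M21). In VC tumours the level of Serpine2 was the highest, with 405 ± 70.1 CPM per kb (SD, n = 4). It was followed by Serpinb6a (172 ± 22.1) and Plau (170 ± 16.3), which did not differ beyond their spread, and then by Plaur (83.9 ± 8.06). Serpinb2 (29.4 ± 31.1) and Plat (25.5 ± 2.69) did not differ beyond their spread, nor did F3 (6.62 ± 2.54) and Tfpi (4.83 ± 1.18).

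In miR-21-KD tumours the level of Plau was the highest, with 337 ± 61.8 CPM per kb (SD, n = 4), above the range of all others. Serpinb6a was second (192 ± 16.0), and its range overlapped that of Serpinb2 (134 ± 77.0). Plaur (129 ± 9.92) and Serpine2 (97.1 ± 43.3) came next, and the ranges of Serpinb2, Plaur and Serpine2 overlapped each other. Plat (28.5 ± 4.86), F3 (18.1 ± 2.17) and Tfpi (8.89 ± 1.65) followed, each apart from the next. When the length of all exons joined was used instead, Plau led in VC tumours as well (168 ± 16.2 against 108 ± 18.7 CPM per kb for Serpine2), because the joined exons of Serpine2 (8287 bases) are much longer than its longest coding transcript (2210 bases). By either length Plau ranked 1 and Serpine2 ranked 5 in miR-21-KD tumours.

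The way the genes varied among tumours of a group was described with the group means of log2 CPM removed, over the 8 tumours, which share these libraries. Of 28 pairs of the 8 tested genes, 10 had a Pearson r above 0.5 and 4 below -0.5, with a median of 0.25. The highest was between Serpinb2 and F3 (r = 0.99, Spearman rho = 0.90), and r was 0.93 without replicates 1 and 2 of VC, the tumours farthest from the median of Serpinb2. F3 and Tfpi followed with 0.82. The lowest was between Plat and Serpine2 (-0.85), and Serpine2 and Tfpi had -0.77. Among 13103 genes, the gene most like Serpinb2 was F3 itself. The most alike genes were Metrnl for Plau (r = 0.996), Arl3 for Serpine2 (0.994), Tgm1 for F3 (0.992), Itm2a for Tfpi (0.997), Aup1 for Plaur (0.988), Ralgapa2 for Plat (0.970) and Tnfrsf23 for Serpinb6a (0.966). These are the highest of many values over 8 tumours and are given as descriptions.

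Other genes of the system were read from a list of 24, of which 17 were tested. 5 were higher, 3 lower and 9 did not pass, with a median log2 fold change of 0.37 against -0.014 over all tested genes, of which 19.6% were higher and 19.5% lower. Lrpap1, the chaperone of the receptor that takes up activator-inhibitor complexes, rose by 0.73 on the log2 scale (adjusted p = 0.0118 by edgeR), and Mrc2, the collagen receptor that associates with the urokinase receptor, by 1.25 (adjusted p = 0.0139 by edgeR). Hgf, whose product is activated by serine proteases, rose by 1.32 (adjusted p = 0.0229 by edgeR), and Fgb, a fibrinogen chain, passed with a higher level as well (adjusted p = 0.0213 by edgeR). Fgb had 13, 2, 1 and 0 counts in VC tumours, 3 of them under the limit that a count of 0 allows, so its fitted fold is uncertain and is not given.

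The lower genes of this list were Igf2r, which binds plasminogen and urokinase receptor at the cell surface, S100a10, a plasminogen receptor that pairs with annexin A2, and Masp1, a protease of the lectin pathway. Igf2r went from 343 ± 56.2 to 117 ± 25.6 CPM (SD, n = 4 each; log2 fold change -1.56, adjusted p = 0.00501 by edgeR). S100a10 fell by 0.78 (adjusted p = 0.00779 by edgeR) and Masp1 by 1.38 on the log2 scale (adjusted p = 0.0155 by edgeR). Anxa2, the partner of S100a10, had a log2 fold change of -0.14 (adjusted p = 0.533 by edgeR). Plg, the substrate of the system, had a mean of 0.0199 CPM in VC and 0 counts in miR-21-KD tumours, below the limit of detection. It is made mainly in the liver. The count of 5 higher genes was 3 without replicate 2 of VC, 2 without replicate 3 of VC, 2 without replicate 3 of miR-21-KD and 8 without replicate 2 of miR-21-KD. The share of all tested genes past the threshold moved the same way, from 39.1% to 22.5%, 20.1%, 25.8% and 46.8%. With the replicate block, under which 45.1% of all tested genes passed, 8 were higher and 4 lower.

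Of 22 other coagulation genes, 15 were tested, 8 higher, 3 lower and 4 not past the threshold, with a median log2 fold change of 0.96. Over all tested genes 19.6% were higher and 19.5% lower, with a median of -0.014. F10, the zymogen that the complex of tissue factor and factor VIIa activates, rose from 60.4 ± 14.9 to 136 ± 24.1 CPM (SD, n = 4 each; log2 fold change 1.17, adjusted p = 0.00674 by edgeR). Vwf, the platelet adhesion protein of endothelium, rose by 1.96 (adjusted p = 0.00785 by edgeR). The anticoagulants Pros1 (protein S) and Serpind1 (heparin cofactor II) rose by 1.20 (adjusted p = 0.0101 by edgeR) and 1.83 (adjusted p = 0.0104 by edgeR), the latter from only 0.466 ± 0.219 to 1.69 ± 0.376 CPM (SD, n = 4 each). Genes of procoagulant and of anticoagulant proteins were thus both among those that rose. The lower ones were F2r (log2 fold change -0.61, adjusted p = 0.0322 by edgeR), F2rl3 (-0.76, adjusted p = 0.0275 by edgeR) and the protein C receptor Procr (-0.40, adjusted p = 0.0301 by edgeR). F2r and F2rl3 encode thrombin receptors, and F2r overlapped between the groups (176 to 232 CPM in VC against 100 to 183 CPM in miR-21-KD). F2rl2, of the same receptor family, had a log2 fold change of 0.72 (adjusted p = 0.0649 by edgeR). The count of lower genes was 0 without replicate 2 or 3 of VC or replicate 3 or 4 of miR-21-KD, where 22.5%, 20.1%, 25.8% and 23.3% of all tested genes passed. It was 1 without replicate 4 of VC (38.8%) or replicate 1 of miR-21-KD (26.5%).

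Serpins of the same clades B, E and F were read from a list of 28, of which only 9 were tested. 6 were higher, and edgeR called 0 lower (0 also at an unadjusted p under 0.05, and 0 with DESeq2 and with limma-voom). The median log2 fold change was 0.87, against -0.014 over all tested genes, of which 19.6% were higher and 19.5% lower. Serpinb9, an inhibitor of granzyme B, rose from 59.5 ± 7.85 to 99.3 ± 9.11 CPM (SD, n = 4 each; log2 fold change 0.74, adjusted p = 0.00585 by edgeR). Serpinf1, the gene of the secreted protein PEDF, rose by 1.81 (adjusted p = 0.00975 by edgeR), Serpinb1a by 0.90 (adjusted p = 0.0180 by edgeR) and Serpinb5, the gene of maspin, by 2.25 (adjusted p = 0.0248 by edgeR). Serpine2 was thus the only serpin of these clades that passed the test with a lower level, among the 12 that passed the filter on low counts (Serpine2, Serpinb2 and Serpinb6a included). The count of 6 was 3 without replicate 2 or 3 of VC or replicate 3 of miR-21-KD, and 2 without replicate 4 of miR-21-KD, with the shares over all genes as above.

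**Figure D5:**
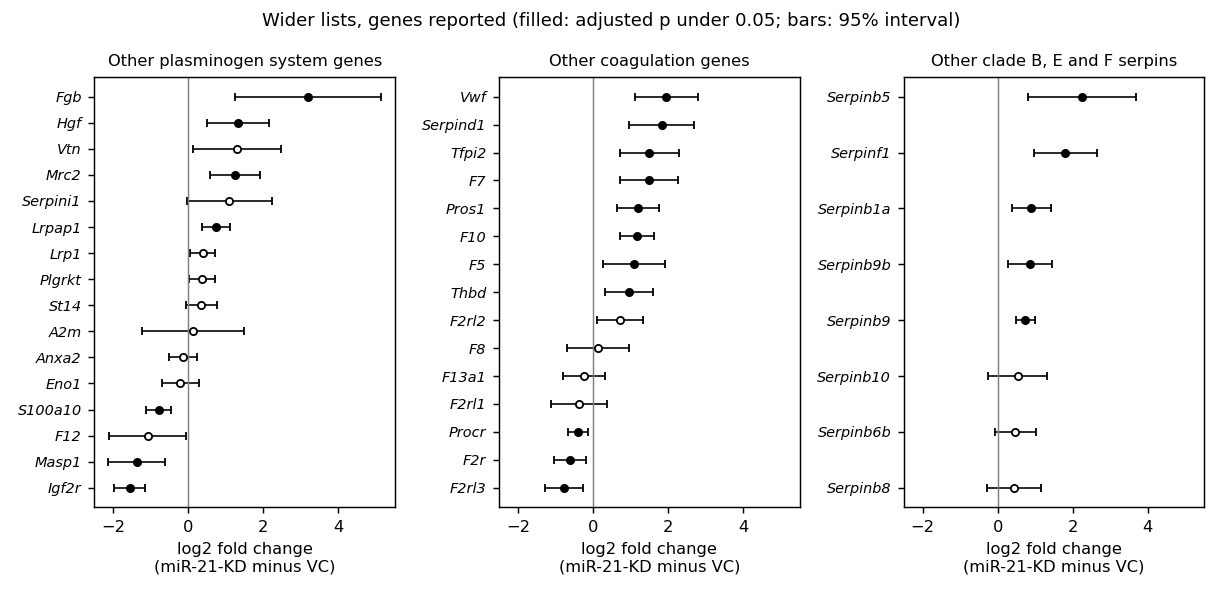
Log2 fold change (miR-21-KD minus VC, with the 95% interval by edgeR) of tested genes of 3 wider lists, filled where the adjusted p was under 0.05. The filled points of the plasminogen and coagulation lists lie on both sides of 0 and those of the serpins to its right, and the position of Fgb rests on few counts in VC.

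Markers of host cells moved with the groups. Of 11 macrophage and monocyte markers 9 were higher. Over all tested genes 19.6% were higher and 19.5% lower, shares that also stand beside the marker counts below. The summed level of the 11 markers was 3723 to 5730 CPM in VC and 6901 to 11635 CPM in miR-21-KD tumours. Mrc1 alone held 1174 to 2340 CPM of it in VC and 3107 to 4951 CPM in miR-21-KD tumours. By flow cytometry, which counts cells and not RNA, the study found fewer monocytes in miR-21-KD tumours. Of 9 fibroblast markers 7 were higher, with Col1a1 at a log2 fold change of 1.48 (adjusted p = 0.0134 by edgeR) and sums of 3457 to 8857 against 11010 to 24714 CPM. Replicate 2 of VC had the lowest sums of fibroblast, T cell, platelet and adipocyte markers of its group, and there Plau, Plaur, F3, Tfpi and Serpinb2 were lowest and Serpine2 was highest. Replicate 1 of miR-21-KD had the highest sums of macrophage, fibroblast, T cell, endothelial and platelet markers of its group and the lowest of epithelial markers, and there Serpine2 and Plaur were lowest and Plat and Tfpi were highest. Of 8 T cell markers 7 were higher (sums 39.0 to 145 against 140 to 305 CPM; Cd247 at 1.59, adjusted p = 0.0102 by edgeR), and of 5 adipocyte markers all 5 (sums 85.1 to 319 against 428 to 1123 CPM; Lep at 2.73, adjusted p = 0.0068 by edgeR).

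Platelet markers were led by Pf4 (log2 fold change 1.63, adjusted p = 0.0057 by edgeR), the 1 gene higher of 3 tested. Their sums of 108 to 141 against 224 to 493 CPM were almost all Pf4 (99.2 to 128 against 210 to 476 CPM), a gene that macrophages also express. Ppbp overlapped between the groups (3.59 to 6.35 against 3.06 to 8.60 CPM), and Gp6 was at 0 in all tumours. Itga2b did not overlap (4.78 to 7.40 against 8.39 to 9.48 CPM; log2 fold change 0.47, adjusted p = 0.0601 by edgeR), and 2 of the 3 were higher with DESeq2 and with limma-voom. Endothelial markers overlapped between the groups (467 to 784 against 669 to 925 CPM), with 1 of 8 higher, Tek at 1.10 (adjusted p = 0.0378 by edgeR). Of the neutrophil markers tested, edgeR called 0 of 7, with 2 at an unadjusted p under 0.05, 2 with DESeq2 and 1 with limma-voom, and Csf3r had the smallest adjusted p, 0.0581 by edgeR (sums 294 to 802 against 385 to 688 CPM). For mast cells it called 0 of 6, with 0 at an unadjusted p under 0.05, by DESeq2 or by limma-voom, and Cma1 was first with an adjusted p of 0.188 (sums 132 to 340 against 204 to 303 CPM). Of the 9 epithelial markers, which carcinoma cells and host mammary epithelium can share, 7 were higher, with Krt19 at 3.60 (adjusted p = 0.0069 by edgeR), and 1 was lower, Krt18 at -1.15 (adjusted p = 0.0374 by edgeR). Their summed level, most of it from Krt18 and Krt8 (log2 fold change -0.88, adjusted p = 0.0870 by edgeR), overlapped between the groups (1304 to 2275 against 1125 to 2121 CPM). Hepatocyte and skeletal muscle markers were scarce, at most 3.67 and 5.57 CPM in sum, with 1 gene tested of each, Alb (log2 fold change 1.53, adjusted p = 0.0316 by edgeR) and Mylpf (0.43, adjusted p = 0.340 by edgeR). Several of the genes described here, such as Plau, Plaur, F3 and Serpinb2, can be made by stromal and myeloid cells as well as by carcinoma cells. The part of these cell types in the changes was not tested.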

How the data were processed

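RNA sequencing was done on 4 whole tumours of each group. The authors deposited a table of whole-number read counts that are not normalized, in which each tumour has a column and each row an Entrez gene identifier. The submitters' processing notes name mm10, Subread, featureCounts, edgeR and limma without their versions, and the strand setting and annotation are not given in the sources used here. Symbols were matched for 25275 of 27179 identifiers (GRCm38.p6), and all columns were used. No pair of tumours of a group agreed within sampling noise (chi-square per degree of freedom 12.6 to 70.7).

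The counts were analysed with edgeR 4.0.16 (R 4.3.3). Genes passed filterByExpr (minimum count 10, minimum total 15), were scaled with TMM and were tested with the robust quasi-likelihood test at an adjusted p under 0.05 with no minimum fold. Intervals are at 95%, and log2 CPM used a prior count of 2. The alternatives were DESeq2 1.42.0, limma 3.58.1 (voom, with and without quality weights), other scalings and filters, an adjusted p under 0.01, a replicate block and each tumour left out.

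The 9 genes, the lists (written from general knowledge) and the tests were chosen with earlier results of these data known. Named beside the 9 genes are Plg and up to 4 genes of each list and direction with the smallest adjusted p and an average of at least 0 log2 CPM, the marker of smallest adjusted p in each marker list, and the gene most like each member (average of at least 1 log2 CPM). A few genes that the rule names are counted in their lists but not reported here. Serpinb6b, Serpinb6d, Serpinb6e, Anxa2, F2rl2, Mrc1, Ppbp, Itga2b, Gp6, Krt8 and Krt18 were named after their values were seen. The labels number the tumours 1 to 4 in both groups and state no shared litter or day. Deviations from the group means correlated between same-numbered tumours with r = 0.272, 0.421, 0.175 and 0.376. As all were above 0.1, a fit with the number as a block was made beside the main fit, which has no block. Values for differently numbered tumours are not given for comparison, so these r do not show that the numbers are pairs. The value with the block is given where it changes a call.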

Additional observations from a re-analysis of the deposited data

Results flagged for a closer look

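Each of the 9 genes was examined in each group of 4 for a tumour that lay far from the others (a gap to the nearest tumour, as a part of the group's range, above Dixon's 95% critical value), 18 groups in all, of which chance picks about 1 in 20. A pair of values was picked. The Plaur level of replicate 1 of miR-21-KD, 172.4 CPM, lay below the other 3 (201 to 203 CPM), with a gap of 0.918 of the range. The Serpinb6a level of replicate 3 of miR-21-KD, 356.8 CPM, lay above the other 3 (301 to 307 CPM), with a gap of 0.88 of the range. Plaur stayed past the threshold and Serpinb6a stayed short of it without these tumours.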

How the results depend on the processing

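Across 16 alternatives each, Plau, Plat, Plaur, Serpine2, Serpinb6a, F3 and Tfpi kept their direction and their side of the threshold, with adjusted p up to 0.0245 for Plau, 0.0227 for Plaur, 0.0254 for Serpine2, 0.0281 for F3 and 0.0434 for Tfpi. Serpinb2 kept its direction and passed the threshold in 5 of the 16. At an adjusted p under 0.01, 3 of the 4 higher genes and the 1 lower gene remained, since Tfpi did not pass. The 5 ratio differences kept their direction and moved by less than the pooled SD of both groups. Without replicate 1 of miR-21-KD the difference for Plau to Serpine2 was 2.73 and that for Plat to Serpine2 1.84, shifts larger than the SD of the VC tumours alone (0.36 and 0.32).

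The wider lists depended more on the settings. Of the other plasminogen system genes 5 were higher, but 8 with DESeq2, 10 with limma-voom and quality weights, 8 with the replicate block and 0 at an adjusted p under 0.01, and 2 to 8 when each tumour was left out in turn. Of the other coagulation genes 8 were higher, but 2 at an adjusted p under 0.01, and the 3 lower genes became 0 at that threshold and 0 to 3 when a tumour was left out. Of the serpins 6 were higher, but 2 at an adjusted p under 0.01 and 2 to 6 when a tumour was left out, and without a filter on low counts 1 was lower, Serpinb9g, which had 0.913 ± 0.626 CPM in VC and 0 counts in miR-21-KD tumours. The cause of these shifts was not tested. Beside these counts, the share of all tested genes past the threshold went from 39.1% to 45.5% with DESeq2, 56.9% with quality weights, 45.1% with the block, 25.4% without a filter and 9.92% at the stricter threshold, and to 20.1% to 46.8% when a tumour was left out. The replicate block changed no other call of the 8 genes beside Serpinb2. The depth limits Serpinf2 and Plg, and near-identical clade B serpins can share reads.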
